A study of Harpegnathos saltator with 75 samples.

Results

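At the start of a reproductive contest in the jumping ant Harpegnathos saltator, 132 of 20659 gene models met the tissue conditions given below. By group means, these had transcripts in both the brain and the fat body and few in the ovary. The 62 of them that also met a limit on the caste ratio at day 10 are called the members below. Levels are in CPM, reads of a gene over all assigned reads of its library on a common scale, with library sizes scaled by TMM, a method that balances libraries of unlike composition. After adding 5 CPM to each group mean, the ovary had to be the lowest of the 3 tissues at day 0. The second tissue had to be at least 2 log2 units above the ovary (Q), and the highest tissue less than 3 log2 units above the second (R). The log2 ratio of gamergates to workers at day 10 had to stay within 0.8 in each tissue. The members were thus chosen by measured values, the day 0 tissue levels and the day 10 caste ratios, so day 0 levels and day 10 caste ratios are given only as descriptions.

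Polyadenylated RNA was sequenced from the non-visual brain, from fat body and from ovary, with 5 libraries in each of 15 groups (75 libraries). The groups of each tissue were day 0 ants, which the labels call workers, then prospective gamergates and prospective workers at day 3 and at day 10 of the contest. Gamergates are workers that mate and lay eggs. The labels give no genotype, colony or age in other terms than these days, and do not say that libraries of a group came from separate ants. The p-values therefore measure the spread between libraries, which may be technical.

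The insect fat body stores and releases lipid and protein and serves functions of the vertebrate liver and adipose tissue. The brain holds neurons and glia, and in Drosophila glia take up and process metabolites and form the barrier to the blood. The ovary consists mainly of germ cells and the somatic follicle cells around them. The deposited table does not pair its identifiers with names, and 0 identifiers matched the RefSeq gene table, so no function is given for any member. Tissue labels could not be set against known marker genes for the same reason. CPM is not corrected for transcript length, so levels are compared between tissues and days, never between members. In bulk tissue, fewer cells of a type and less RNA per cell cannot be told apart.

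Assigned reads ranged from 488892 to 4677916 per library, with a median of 1380887. Members took 1.37% to 1.87% of the reads in brain libraries, 0.720% to 1.49% in fat body libraries and 0.141% to 0.318% in ovary libraries. At day 3 and day 10 all gamergate libraries were on lane 2 and all worker libraries on lane 1, so caste and lane cannot be told apart. Day 3 and day 10 libraries were on different flow cells, and for these groups day and flow cell cannot be told apart either. Libraries of the 3 tissues from the same day and caste shared a lane at day 3 and day 10. Day 0 libraries were spread over both lanes of both flow cells, with same-numbered libraries of the 3 tissues on the same lane.

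A few libraries stood apart. Day 0 brain library 5 had 22 of the 62 members (35.5%) more than 1 log2 unit below the mean of the other 4 libraries (5 CPM added), against 19.5% of all 11156 genes tested. In day 10 gamergate brain library 5 the same held for 18 members, against 15.7% of all genes. The other 23 brain libraries had 0 to 7 such members, with a median of 0. Of these members, 9 were low in both libraries, which is 40.9% of the first set and 50% of the second. Outside the brain, the largest counts of low members were in fat body. Day 3 worker fat body library 5 had 18 (29%, against 6.28% of all genes). Day 10 worker fat body library 1 had 15 (24.2%, against 2.38%) and library 5 had 12 (19.4%, against 7.22%). Day 3 worker fat body library 2 had 12 members more than 1 log2 unit above the mean of the other 4 libraries (19.4%, against 2.56%). Genes specific to the brain at day 0 (highest there, R of 3 or more, at least 10 CPM; 375 genes) took 11.1% of the reads in day 0 brain library 5, against 12.9% to 16.9% in the others. They took 9.49% in day 10 gamergate brain library 5, against 14.6% to 16.03%. The share of the 339 genes specific to fat body by the same rule was 7.10% in that library, against 4.25% to 5.35% in its group. Reads on no feature were 67.7% of the counted reads in day 0 brain library 5, against 57.05% to 58.0% in the others. In day 10 gamergates, fat body and ovary libraries 5 also stood apart from their own group by this share. It was 33.0% in fat body, against 20.7% to 22.1%, and 42.6% in ovary, against 29.65% to 34.5%. In the other groups it was 26.8% to 36.7% in fat body and 34.0% to 43.5% in ovary. Both libraries 5 lay within these ranges, and the other day 10 gamergate fat bodies lay below theirs. Day 0 brain library 5 scattered both ways, with 14 members (22.6%) more than 1 log2 unit above the mean of the other 4, against 12.4% of all genes. Members took 1.58% of its reads, against 1.42% to 1.52% in the others. In day 10 gamergate brain library 5, 2 members (3.23%) were that far above, against 9.38% of all genes. The part of tissue composition in the low and high values of the brain libraries was not tested.

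At day 0 the fat body was highest for 39 members and the brain for 23. Median levels were 78.9 CPM in brain, 80.9 CPM in fat body and 4.68 CPM in ovary. The ovary mean was below 5 CPM for 32 members and below 1 CPM for 17. Q ran from 2.01 to 4.36 with a median of 2.69. Just inside the limit on Q was HSALG004380.2 (2.01), and just outside it was HSALG013518.2 (1.99). For R, HSALG023351.1 (3.00) was just inside and HSALG010649.1 (3.78) outside. For the caste ratio, HSALG027944.1 was just inside (0.79 in fat body) and HSALG023555.1 outside (-0.81 in fat body). The tissue conditions alone were met by 132 genes, and the caste ratio left out 70 of them. The ratio was past the limit in the ovary for 47 of these, in the fat body for 35 and in the brain for 2. Among the 47, the ovary level was lower in gamergates for 40 and higher for 7.

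**Figure D1:**
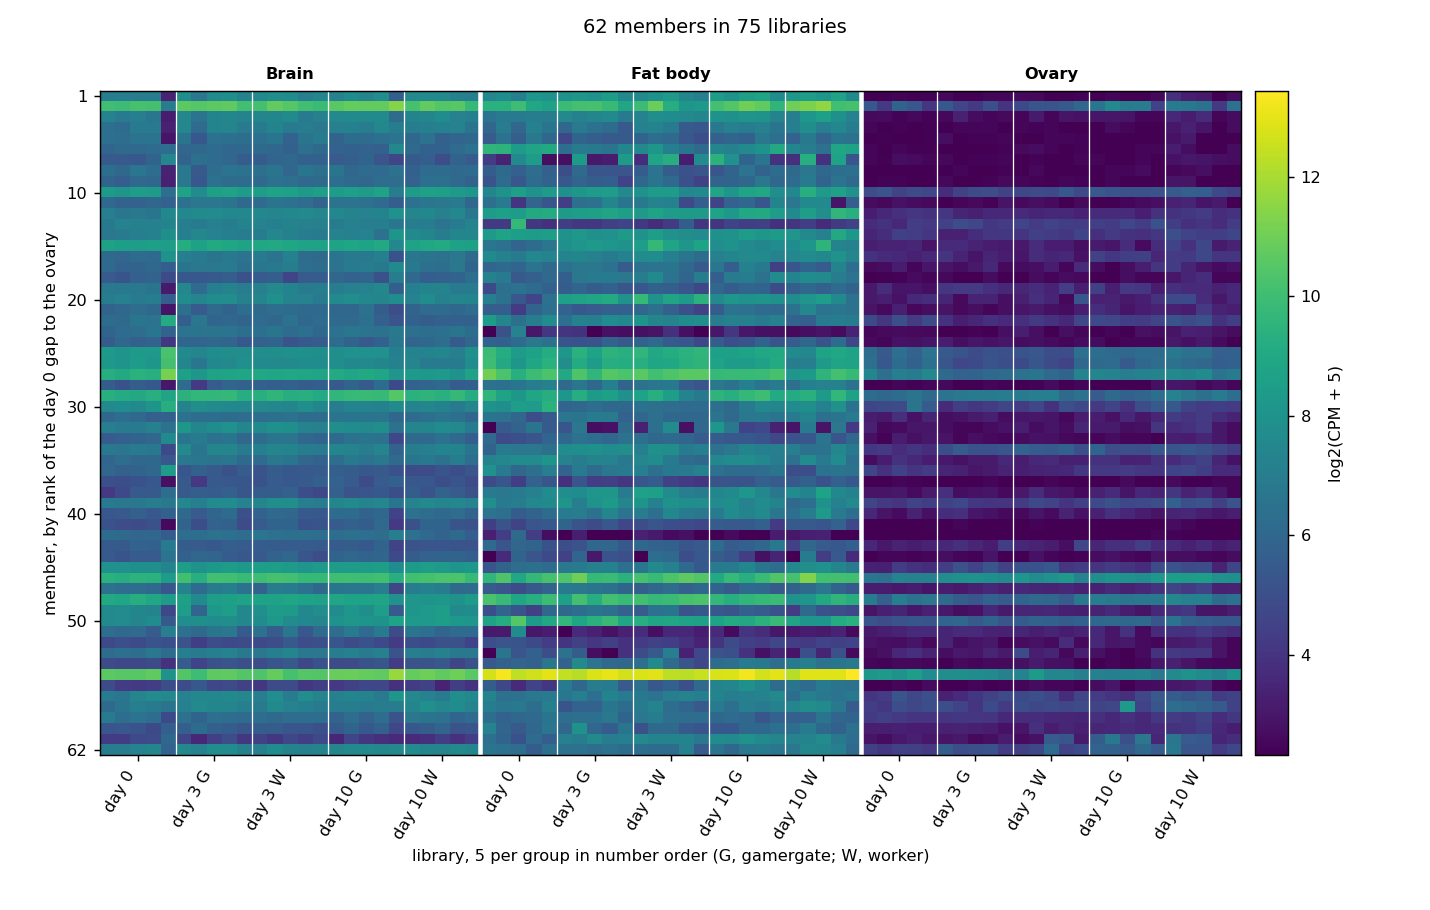
Levels of the 62 members (rows, by rank of Q) in the 75 libraries (columns), as log2(CPM + 5) in colour; thin white lines part groups of 5 libraries and thick lines the tissues. Most rows are bright in brain and fat body and dark in ovary, and the fifth day 0 brain column is more than 1 log2 unit below its group in 22 rows.

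The largest Q belonged to HSALG006965.2. Its day 0 levels were 122, 128, 122, 125 and 5.76 CPM in brain, and 171, 207, 132, 282 and 252 CPM in fat body. In ovary they were 0, 0, 0.315, 0.140 and 0.219 CPM. Brain and fat body libraries thus stood above every ovary library, and brain library 5 lay far below the other brain libraries. HSALG001307.1, with the second largest Q, had 1035, 978, 1156, 1146 and 126 CPM in day 0 brain. In fat body it had 686, 678, 1018, 487 and 410 CPM, and in ovary 36.6, 13.4, 54.2, 35.0 and 11.8 CPM. The low brain value was again library 5. HSALG008360.2 took more reads than any other member in day 0 brain and in day 0 fat body. It had 1560, 1469, 1494, 1664 and 245 CPM in brain and 6797, 9834, 5273, 6409 and 8010 CPM in fat body. Its ovary values, 294, 305, 252, 371 and 210 CPM, were all lower than the fat body values, while brain library 5 fell among them. At day 3 it had medians of 1420 CPM in brain (1009 to 1784, n = 10), 6175 CPM in fat body (4814 to 8198) and 184 CPM in ovary (131 to 330), without overlap between the tissues. At day 10 the medians were 1807 CPM in brain, 7563 CPM in fat body and 158 CPM in ovary, again without overlap.

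Some members met the day 0 rule through 1 library. In fat body, a single library held more than 50% of the group's summed CPM for 5 members, 4 of them through library 3. In brain this held for 3 members, all through library 5. HSALG016233.1 had 13.5, 13.3, 844, 12.4 and 9.48 CPM in day 0 fat body, against 8.13, 10.6, 7.25, 15.0 and 12.9 CPM in day 0 ovary. HSALG004318.2 had 3.68, 3.70, 206, 3.11 and 4.31 CPM in fat body, against 3.56, 4.46, 5.36, 7.69 and 7.89 CPM in ovary. Apart from library 3, the fat body values of both genes lay in or near the ovary range. Without the 3 day 0 libraries numbered 3, 56 of the 62 members still met the rule. Without those numbered 5, 55 did. Without day 10 gamergate libraries 5, 52 did.

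The day 3 and day 10 libraries, whose tissue differences were not used by the rule, show how far the pattern held. Averaged over both castes, all 62 members were higher in brain than in ovary at day 3 (edgeR quasi-likelihood test, adjusted p below 0.05), where 41.2% of all genes tested were higher. The members' median log2 fold change was 4.13, against 0.07 over all genes. In fat body 60 of 62 were higher than in ovary at day 3, against 32% of all genes (70.3% in either direction), with a median of 4.45 against -0.12. The exceptions were HSALG016233.1 and HSALG004318.2, which were among the 4 members that rested on day 0 fat body library 3. The others, HSALG005843.2 and HSALG023350.1, were called higher in fat body than in ovary, but at low levels. Their day 3 fat body medians were 2.13 and 0.662 CPM, from 32 and 17 reads over 10 libraries. HSALG016233.1 had a median of 12.9 CPM in day 3 fat body (8.31 to 42.8, n = 10) and 16.4 CPM in day 3 ovary (12.5 to 26.2), with a log2 difference of -0.09 ± 0.46 (SE). HSALG004318.2 had 5.10 CPM (0 to 8.31) in fat body and 5.82 CPM (3.90 to 7.96) in ovary, with a log2 difference of -0.32 ± 0.57. Both were higher in brain, at medians of 139 CPM for HSALG016233.1 and 76.9 CPM for HSALG004318.2. The persistence was not particular to the members. Of the 70 genes left out by the caste ratio, 70 were higher in brain than in ovary at day 3 (median log2 fold change 4.62). In fat body 69 of these 70 were (median 5.05). At day 10 these counts were 68 in brain and 67 in fat body.

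At day 10, 61 members were higher in brain than in ovary, where 40.4% of all genes were, and 1 was lower, where 34.4% were. In fat body 59 were higher than in ovary, where 30.5% of all genes were, 0 were lower and 3 were not called. In either direction 67% of all genes were called. The median log2 fold changes were 3.50 for brain and 3.60 for fat body, against 0.09 and -0.14 over all genes. At both days 58 members were above the ovary in both tissues. Without day 10 gamergate libraries 5, the day 10 counts were 61 higher and 1 lower in brain, and 58 higher in fat body. Libraries of the 2 tissues did not overlap for 61 members between brain and ovary at day 3 (47.2% of all genes) and for 52 between fat body and ovary (32.1%). At day 10 these counts were 59 (31.9%) and 51 (24.6%).

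**Figure D2:**
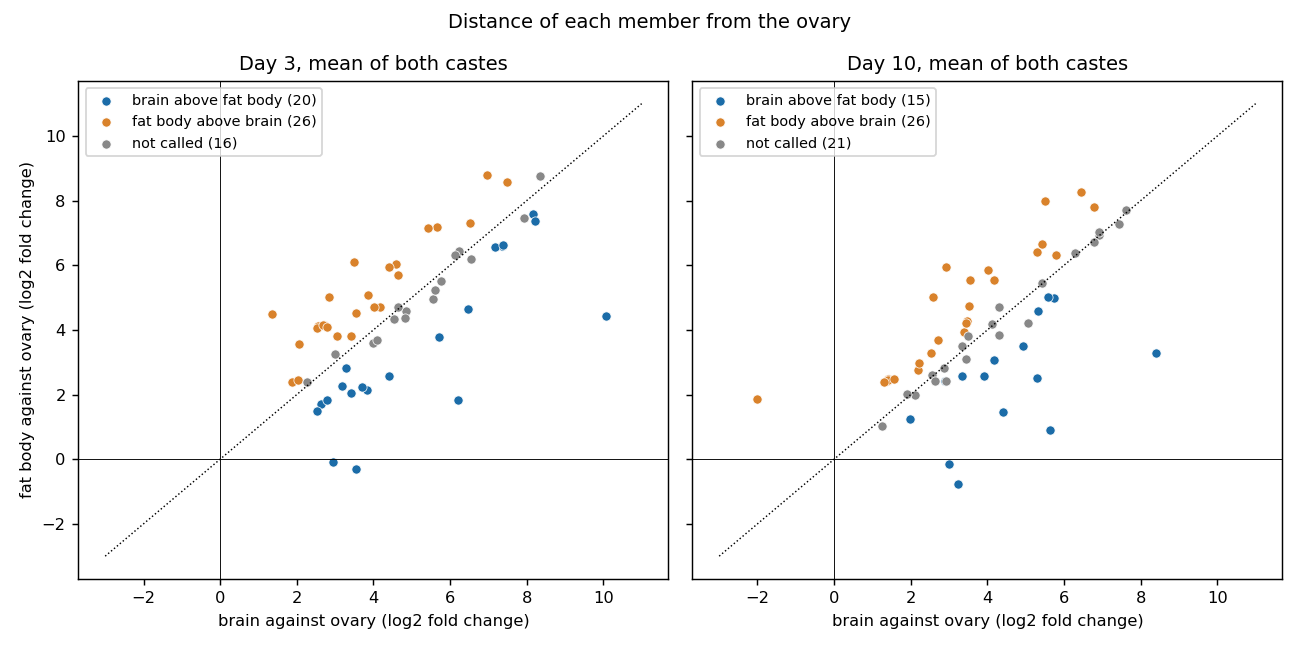
Log2 fold change of each member in brain against ovary (horizontal axis) and fat body against ovary (vertical axis), averaged over both castes, at day 3 (left) and day 10 (right); colours give the edgeR call between brain and fat body, and the dotted line marks equal distance from the ovary. Both distances are positive for 60 members at day 3, and 1 member lies left of zero at day 10.

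HSALG023350.1 had the largest fitted distance between brain and ovary at both days. In day 3 brain it had 73.8, 76.8, 83.5, 77.1 and 72.7 CPM in gamergates and 96.6, 82.9, 81.1, 82.0 and 76.2 CPM in workers. It had 0 reads in the 10 day 3 ovaries. With a floor of 3 reads over the group, the brain level was 573-fold higher. With the 0 reads as counted, the 95% counting interval of the ratio began at 465. At day 10 there were 3 ovary reads, and the ratio was 491 (95% counting interval 167 to 2380). In fat body the same gene stayed low, with a median of 0.662 CPM at day 3 (0 to 5.19). Its brain level was above its fat body level by a log2 fold change of 5.66 ± 0.44 (SE; edgeR adjusted p = 5.02e-17). Day 0 fat body library 3 had 67.6 CPM of this gene, against 1.72 to 15.5 CPM in the other 4 libraries.

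HSALG006965.2 remained high in both tissues. In day 3 brain it had a median of 192 CPM (102 to 228, n = 10), in fat body 246 CPM (132 to 342) and in ovary 0.552 CPM (0 to 0.991). The groups did not overlap between either tissue and the ovary. The pooled ratio to the ovary, which held 10 reads, was 391 for brain (95% counting interval 212 to 816) and 499 for fat body (271 to 1040). The difference between brain and fat body was not called at day 3 (log2 fold change -0.44 ± 0.26, edgeR adjusted p = 0.113). At day 10 the ovary held 64 reads of the gene, 46 of them in worker library 1, and the ratios were 45.3 (35.3 to 59.1) for brain and 92.7 (72.4 to 121) for fat body. Without that ovary library they were 120 (75.6 to 203) and 245 (155 to 414). Day 10 worker ovary library 1 was also the ovary library with the largest share of fat-body-specific reads, 4.15%, and the part of this in the ratios was not tested.

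At day 10 HSALG022460.1 was the member with the second largest distance of brain from ovary, with 66.0 CPM (48.7 to 87.6) in brain and 0 CPM (0 to 3.64) in ovary. Its pooled ratio was 74.2 (46.7 to 126), and 142 (68.6 to 354) without worker ovary library 1, which held 11 of its 18 ovary reads. HSALG023351.1 had the largest distance of fat body from ovary at day 10, with 177 CPM (84.9 to 522) in fat body and 0.245 CPM (0 to 4.37) in ovary, a pooled ratio of 153 (106 to 231). The same ovary library held 21 of its 28 ovary reads, and without it the ratio was 456 (221 to 1130).

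Fat body levels of HSALG006167.2 ranged widely within every group. At day 3 it had 1.91, 326, 3.44, 4.38 and 329 CPM in gamergate fat bodies and 8.31, 450, 598, 4.08 and 203 CPM in worker fat bodies. At day 10 the values were 704, 242, 54.8, 93.4 and 10.4 CPM in gamergates and 9.55, 621, 9.99, 436 and 32.6 CPM in workers. High and low libraries occurred in both castes and both days, and at day 0 the values ran from 1.72 to 346 CPM. In day 3 brain the gene stayed between 41.6 and 81.0 CPM, and in day 3 ovary it did not pass 0.863 CPM. Fat body exceeded ovary by a log2 fold change of 8.78 ± 1.11 at day 3 (edgeR adjusted p = 2.73e-10).

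Between day 3 and day 10 the number of members above the ovary in both tissues went down by 2, through HSALG002844.2 and HSALG005843.2. HSALG005843.2 was called higher in fat body than in ovary at day 3, with a pooled ratio of 3.07 (95% counting interval 1.77 to 5.41), and was not called at day 10 (1.37, 0.828 to 2.24). HSALG002844.2 was the member called lower in brain than in ovary at day 10. Its day 10 ovary levels were 43.9, 103, 28.1, 99.3 and 6.36 CPM in gamergates and 96.8, 39.99, 36.4, 6.25 and 8.53 CPM in workers. The day 3 ovary levels were 2.59, 3.41, 1.14, 1.89 and 4.36 CPM in gamergates and 1.49, 2.31, 40.5, 34.6 and 3.76 CPM in workers. Most day 10 ovaries were thus above most day 3 ovaries, though 3 day 10 libraries were below 10 CPM and 2 day 3 worker libraries were above 30 CPM. Brain levels at day 10 were low, with a median of 9.89 CPM (6.41 to 20.1), and the log2 fold change of brain against ovary was -2.02 ± 0.40 (edgeR adjusted p = 9.19e-06). Fat body levels, with a median of 174 CPM (76.2 to 247), remained above the ovary by 1.87 ± 0.35 on the log2 scale.

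**Figure D3:**
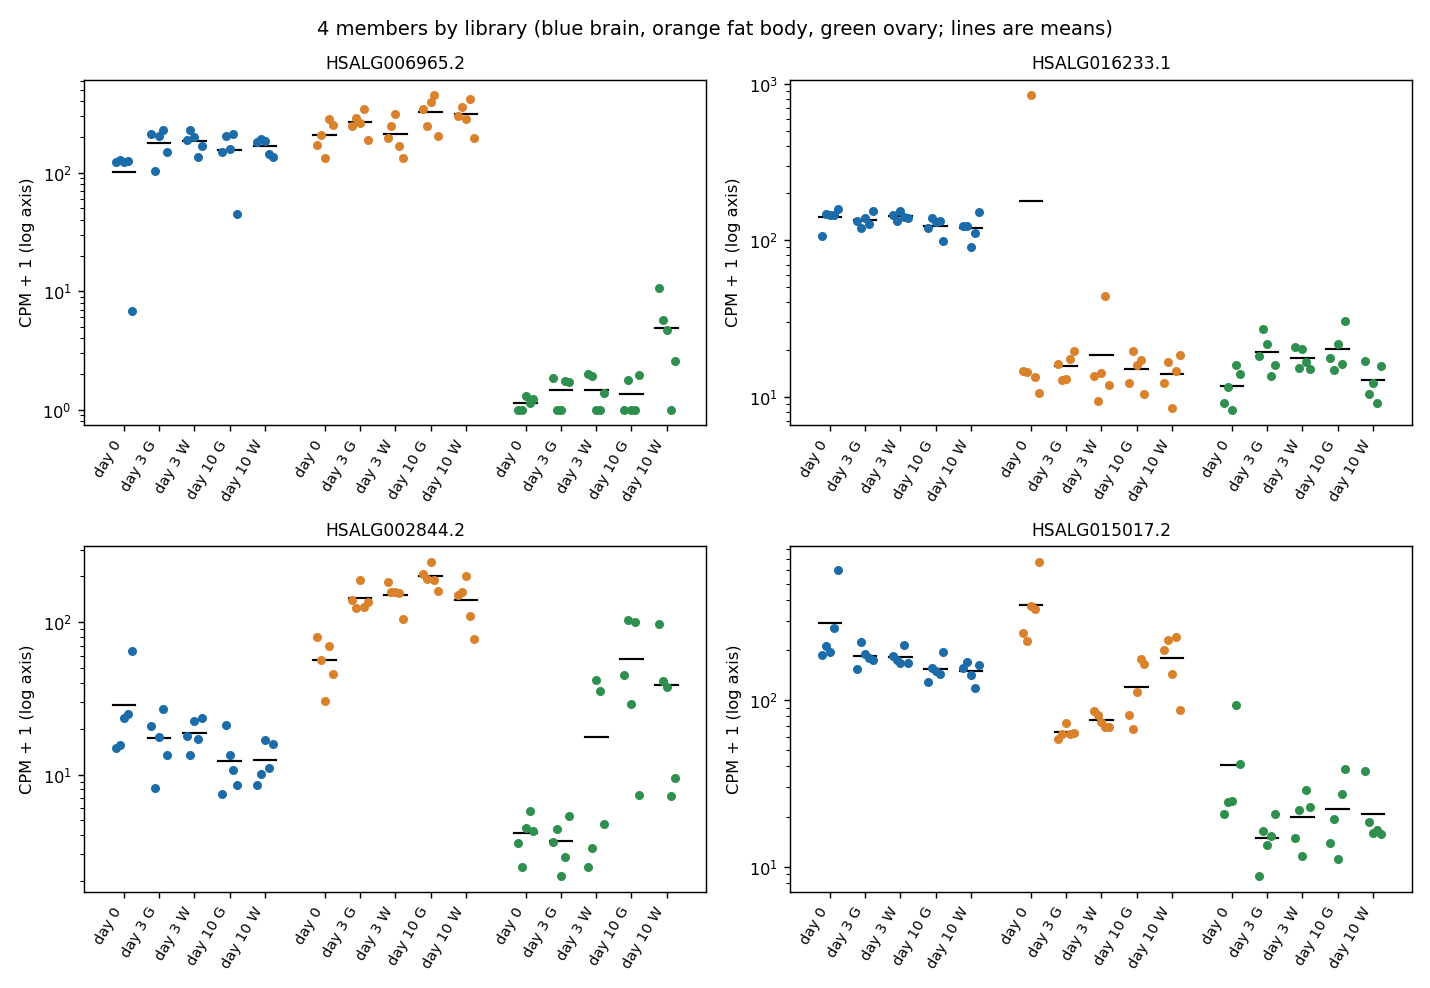
CPM + 1 on a log axis in every library for 4 members; points are libraries and black lines group means, with brain in blue, fat body in orange and ovary in green (G, gamergate; W, worker). HSALG006965.2 has 1 low day 0 brain library (5.76 CPM), HSALG016233.1 has 1 high day 0 fat body library (844 CPM), HSALG002844.2 has higher ovary points at day 10, and HSALG015017.2 has low fat body points at day 3.

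Between the 2 tissues where members were high, the balance went either way. At day 3, 20 members were higher in brain than in fat body (44.1% of all genes were) and 26 were lower (32.5%), with 16 not called. At day 10 these counts were 15 (42.9%), 26 (30.8%) and 21, with 73.6% of all genes called in either direction. The split rests on the scaling: with library totals alone it was 41 higher and 4 lower at day 3, and 43 and 6 at day 10. That change moved the median of all genes from 0.24 to 1.38 at day 3. With DESeq2-type size factors (RLE) the split was 26 and 22 at day 3, and 18 and 23 at day 10.

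With TMM scaling, the side that led at day 0 mostly led later. Of the 23 members highest in brain at day 0, 13 were higher in brain at day 3 and 2 were higher in fat body, and the counts were the same at day 10. Of the 39 highest in fat body, 24 were higher in fat body at day 3 and 7 in brain. At day 10 these counts were 24 and 2, not all of them the same members. From day 3 to day 10, 22 members were called for fat body at both days, 11 for brain at both days, and 0 were called for opposite tissues. Over all genes, 76.6% were called in either direction at day 3 and 73.6% at day 10. Joint counts were not taken over all genes, so those of the members are a description. Like the split, they rest on the scaling.

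Toward the brain, HSALG005843.2 followed HSALG023350.1. It had a median of 83.3 CPM in day 3 brain (61.8 to 93.5, n = 10) and 2.13 CPM in day 3 fat body (0 to 11.4), with a log2 fold change of 4.38 ± 0.46 (edgeR adjusted p = 2.66e-13). At day 10 the medians were 85.8 CPM in brain and 2.29 CPM in fat body. The groups did not overlap at either day, although day 0 fat body library 3 had 146 CPM. Toward the fat body, HSALG002844.2 had 16.8 CPM in day 3 brain (7.11 to 25.99) and 147 CPM in day 3 fat body (105 to 189), a log2 fold change of -3.12 ± 0.38. HSALG007881.2 had 42.9 CPM in brain (21.7 to 48.0) and 211 CPM in fat body (113 to 404), a log2 fold change of -2.61 ± 0.26. HSALG010412.1 stood out at day 10, with 15.1 CPM in brain (5.73 to 21.5) and 103 CPM in fat body (68.5 to 234), a log2 fold change of -3.03 ± 0.27.

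Between day 3 and day 10, averaged over castes, no member was called in brain. Of the 62, 0 passed the edgeR threshold, against 0.0506% of all genes (5 of 9886; 0.0101% higher and 0.0405% lower), and 6 members had an unadjusted p below 0.05, as did 5.27% of all genes. The members' log2 changes ran from -0.58 to 0.73 with a median of -0.06. DESeq2 also called 0, and a fit on the compared groups alone called 1.

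In fat body, 3 members were higher at day 10 and 4 were lower of 59 tested, against 2.3% and 2.24% of all genes (4.55% in either direction). This count of 7 was 1 with flow cell and lane as a term, 0 within gamergates, 4 within workers, 15 with DESeq2 and 2 to 11 with 1 library left out. HSALG015017.2 rose most. Its day 10 fat body levels were 80.6, 66.5, 111, 175 and 164 CPM in gamergates and 197, 227, 142, 238 and 85.9 CPM in workers. At day 3 it had 57.2, 61.96, 72.3, 61.3 and 62.2 CPM in gamergates and 85.2, 80.6, 72.8, 68.3 and 68.2 CPM in workers. Only the lowest day 10 libraries overlapped the day 3 range, and the log2 change was 1.08 ± 0.21 (edgeR adjusted p = 0.00397). Day 0 fat bodies had been higher still, at 251, 227, 366, 350 and 671 CPM. In brain the same gene had a median of 152 CPM at day 10 and 176 CPM at day 3, a log2 change of -0.23 ± 0.17.

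HSALG015017.2 was also the 1 member whose change differed between brain and fat body, by -1.31 ± 0.33 on the log2 scale (edgeR adjusted p = 0.0356), where 0.619% of all genes were called. That call was lost in 13 of 20 fits that each left out the brain, fat body and ovary libraries of 1 number. HSALG005308.2 was the second riser, with 37.3 CPM in day 10 fat body (30.0 to 49.5, n = 10) and 15.95 CPM in day 3 fat body (9.54 to 42.2), a log2 change of 0.91 ± 0.24. The 2 largest falls were 0.98 ± 0.29 log2 units for HSALG003307.1 and 0.71 ± 0.21 for HSALG011473.2, with edgeR adjusted p-values of 0.0494 and 0.0492. HSALG003307.1 had 245 CPM at day 10 (85.9 to 373) and 433 CPM at day 3 (249 to 872). Of 29 alternative settings, the call of HSALG003307.1 was lost in 21 and its direction turned in 1, and the call of HSALG011473.2 was lost in 22.

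In the ovary, where members are low, 15 rose by day 10 and 1 fell of 40 tested, against 3.2% and 3.06% of all genes (6.26% in either direction). Another 22 members had too few ovary reads to be tested. The median log2 change was 0.64 for the tested members and -0.02 for all genes. All 15 passed the filter on low counts without the day 10 libraries, as did 37 of the 40, and the day 10 mean was above the day 3 mean within each caste for all 15. The day 10 mean was above the day 0 mean in both castes for 11 of the 15. After HSALG002844.2, the largest rise was that of HSALG001307.1, with 95.6, 191, 122, 124 and 18.6 CPM in day 10 gamergate ovaries and 111, 108, 82.1, 13.8 and 82.2 CPM in day 10 worker ovaries. Day 3 ovaries had 36.3, 19.9, 13.4, 27.6 and 10.9 CPM in gamergates and 22.3, 33.3, 30.5, 39.5 and 58.7 CPM in workers. Of the day 10 ovaries, 8 of 10 exceeded every day 3 ovary, and the log2 change was 1.75 ± 0.39 (edgeR adjusted p = 0.0122). The member that fell, HSALG005966.2, changed by -0.48 ± 0.14 (edgeR adjusted p = 0.0406). It changed by -0.93 within gamergates and by -0.04 within workers.

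**Figure D4:**
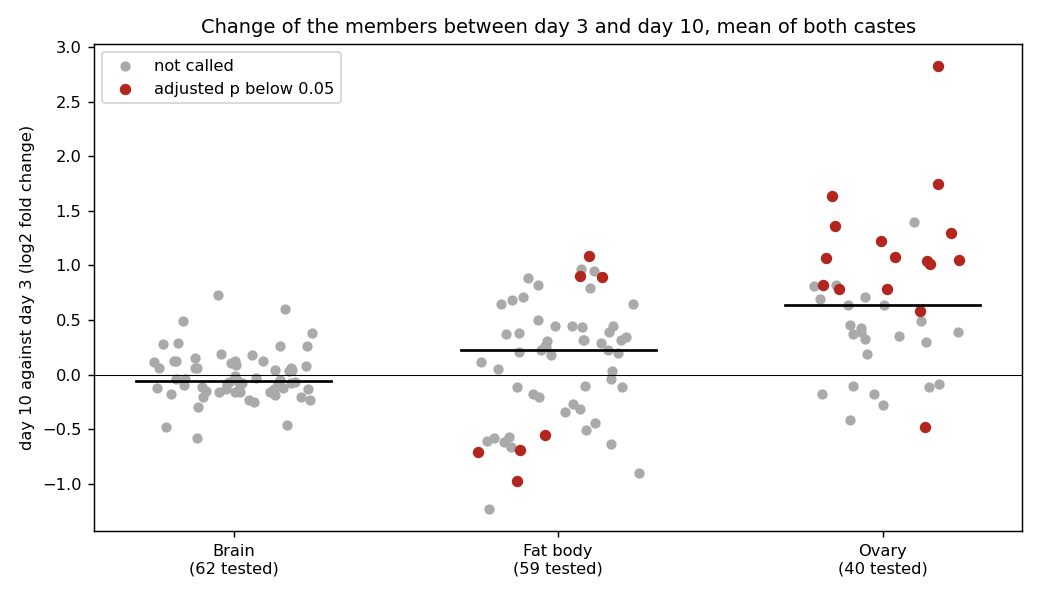
Log2 fold change of each member at day 10 against day 3 (vertical axis) in brain, fat body and ovary, averaged over castes; red points passed the edgeR threshold, grey points did not, and black lines are medians over members tested. Brain points lie between -0.58 and 0.73 with 0 called, and 15 of 16 called ovary points are above zero.

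Other gene lists moved in the ovary over the same days. Of the 70 genes that met the tissue conditions but not the caste ratio, 53 were tested there. Of these, 7 rose and 0 fell, with a median log2 change of 0.69, against 0.64 for the members. Of the 230 fat-body-specific genes tested there, 31 rose and 1 fell, with a median log2 change of 0.52. Of 135 brain-specific genes, 6 rose and 3 fell (median 0.32). Of 77 ovary-specific genes, 0 rose and 5 fell (median -0.24). Fat-body-specific genes took a median of 2.21% of ovary reads in day 10 gamergates (1.83% to 2.34%) and 3.17% in day 10 workers (1.92% to 4.15%). At day 3 they took 1.70% in gamergates (1.57% to 1.87%) and 2.02% in workers (1.73% to 2.504%). Their part in the members' rise was not tested. With flow cell and lane as a term, which rests on the few day 0 libraries of each lane, 0 ovary members were called. The median log2 change of the 15 was then 0.86 (median SE 0.47), against 1.07 (0.23) without the term, and all 15 kept their direction.

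Within groups, 6 members varied together over the 75 libraries, a set chosen after their values were seen. Its starting point was HSALG027330.1, and the closest to it was HSALG000617.2, with a Pearson r of 0.94 on the log2 scale after removing group means. The other 4 had r from 0.72 to 0.92, and the next member had 0.41. In brain alone HSALG027329.1 had an r of 0.12 with the starting gene. It was at 338 CPM in day 0 brain library 5, below the 457 to 598 CPM of the other 4 libraries, where the sum of the 6 was at its highest. Libraries share depth and composition, so r is a description. All 6 were among the 15 members that rose in the ovary. Among the identifiers, 3 have consecutive numbers, as do another pair, and reads shared between near-identical copies could not be recognised here.

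The summed level of the 6 was 356 to 464 CPM in day 10 gamergate ovaries and 270 to 593 CPM in day 10 worker ovaries. It was 144 to 221 CPM in day 3 gamergate ovaries and 155 to 426 CPM in day 3 worker ovaries. The day 10 gamergate range lay above the day 3 gamergate range, and the worker ranges overlapped. In day 0 ovaries the sum was 224 to 484 CPM, so day 3 was the lowest of the 3 days by group mean. In brain, day 0 library 5 had a sum of 5872 CPM, against 1628 to 2103 CPM in the other 4 libraries. In day 10 gamergate brain, library 5 was the lowest at 856 CPM, against 1413 to 1554 CPM. The sum in fat body ran from 907 to 5839 CPM, and 2 day 10 worker libraries were below 1000 CPM.

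**Figure D5:**
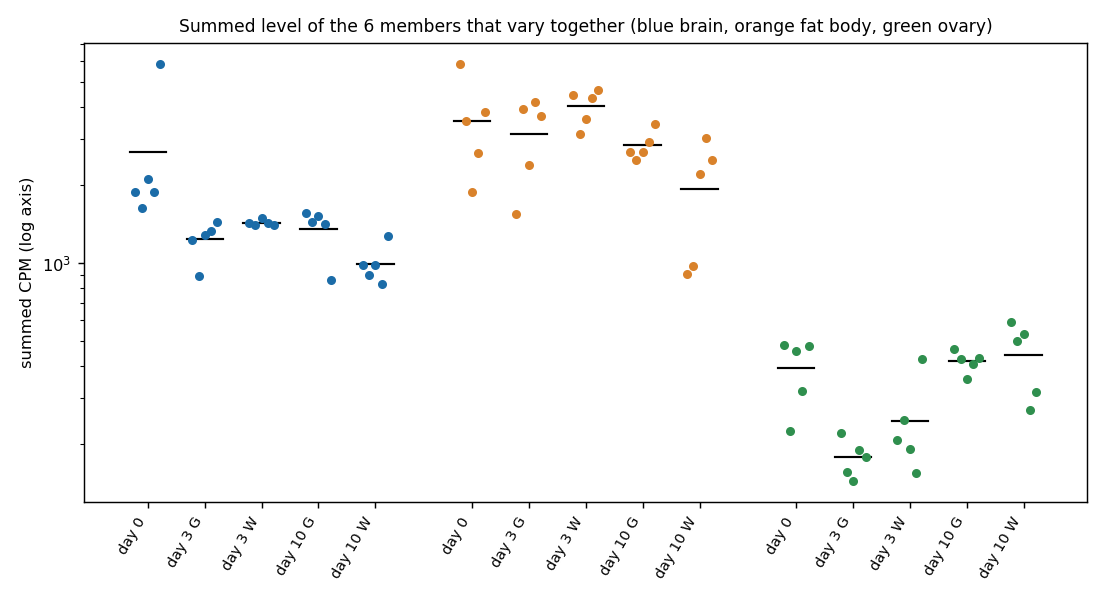
Summed CPM of the 6 members that vary together (log axis) in every library, by tissue, day and caste; points are libraries and black lines group means. Ovary group means are lowest at day 3 (libraries at 144 to 426 CPM), and 1 day 0 brain library stands at 5872 CPM.

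The rule did not use the caste difference at day 3. Gamergates and workers differed for 0 members in brain (of 62), fat body (of 59) and ovary (of 40) by the edgeR test, where 0%, 0.0504% and 0% of all genes were called. DESeq2 also called 0 in each tissue. At an unadjusted p below 0.05 there were 0 of 62 members in brain (1.27% of all genes), 4 of 59 in fat body (6.4% of all genes) and 6 of 40 in ovary (3.96% of all genes). Median log2 differences of gamergates against workers were 0.02 in brain, -0.09 in fat body and -0.32 in ovary, and over all genes -0.02 in ovary. The ovary median was also below zero for genes left out by the caste ratio (-0.36), fat-body-specific genes (-0.28) and brain-specific genes (-0.14). For ovary-specific genes it was 0.15. The largest of the 6 ovary differences was that of HSALG002844.2 (-2.56 ± 0.99, edgeR adjusted p = 0.983), which rests on 2 worker libraries above 30 CPM. The caste difference in brain minus that in fat body was called for 0 of 62 members and 0% of all genes, and 1 member had an unadjusted p below 0.05, as did 2.94% of all genes.

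Applied again to each later group, the tissue conditions were met by 47 members in day 3 gamergates, 45 in day 3 workers, 39 in day 10 gamergates and 38 in day 10 workers. The ovary was lowest for 60, 62, 60 and 59 members in the same groups. Median ovary levels were 4.68 CPM at day 0, 4.28 CPM in gamergates and 5.61 CPM in workers at day 3, and 5.83 CPM in gamergates and 9.46 CPM in workers at day 10. Median brain levels were 78.9 CPM at day 0 and 90.8 to 103 CPM in the later groups, and median fat body levels were 80.9 CPM and 92.9 to 117 CPM.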

How the data were processed

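The values that the authors deposited are raw counts, whole numbers of reads for each gene model. Trimmomatic, STAR 2.5.3a and HTSeq are named in the submitters' processing notes. No genome build, annotation or strand setting was given in the sources used. Rows for reads assigned to no gene stayed out of library sizes and tests. The row for reads on no feature held 20.7% to 67.7% of a library's counted reads, and in brain 50.6% to 67.7%.

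Counts were analysed with edgeR 4.0.16 in R 4.3.3 (TMM, filterByExpr with minimum count 10 and minimum total 15, robust quasi-likelihood test, Benjamini-Hochberg threshold 0.05). Tissue contrasts used 1 fit of all 75 libraries (11156 genes), and changes within a tissue used its 25 libraries (9886, 7941 and 9150 genes in brain, fat body and ovary). The standard error (SE) was taken from the F statistic, as the size of the log2 fold change over the root of F. Intervals of pooled ratios are exact binomial intervals and cover counting error only. The code was tested on simulated counts. For a contrast, the text names up to 2 called members each way, by fold change, with at least 10 CPM in the higher groups and no overlap of libraries, and it names the 2 members of largest Q and the member with the most reads in day 0 brain and fat body. Any other member named (changes within fat body or ovary, exceptions, values resting on 1 library) was chosen after its values were seen. Members and lists were chosen with earlier results of these data known. DESeq2 1.42.0 and other scalings, filters and fits served as alternatives.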

Additional observations from a re-analysis of the deposited data

Results flagged for a closer look

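Single libraries far from the other 4 of their group were looked for in 71 groups of values, and 15 were found. Chance flags about 1 in 20 groups, but some of these members were named because 1 library stood apart, and several values share a library, so 15 of 71 cannot be set against that rate. Over all 62 members and 15 groups, 119 of 930 groups of values (12.8%) had such a library on the scale of log2(CPM + 5). The 71 groups were examined as CPM or as shares, so these rates are not on the same scale. In day 0 brain, library 5 lay far below the others for HSALG006965.2 (5.76 CPM, others 122 to 128), for HSALG001307.1 (126 CPM, others 978 to 1156) and for HSALG008360.2 (245 CPM, others 1469 to 1664). The same library lay far above the others for HSALG027330.1 (1132 CPM, others 264 to 346), for HSALG006167.2 (172 CPM, others 37.3 to 54.4) and for the summed level of the 6 members that vary together (5872 CPM, others 1628 to 2103). In day 0 brain, library 1 was low for HSALG016233.1 (106 CPM, others 143 to 158).

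In day 0 fat body, library 3 was far above the others for HSALG016233.1 (844 CPM, others 9.48 to 13.5), HSALG004318.2 (206 CPM, others 3.11 to 4.31), HSALG005843.2 (146 CPM, others 0 to 28.9) and HSALG023350.1 (67.6 CPM, others 1.72 to 15.5). In day 10 gamergate brain, library 5 was low for the summed level of the 6 members (856 CPM, others 1413 to 1554) and high for the share of reads taken by all members (1.87%, others 1.54% to 1.61%). That share was also high in day 10 gamergate fat body library 5 (1.18%, others 0.720% to 0.830%) and low in day 0 ovary library 2 (0.143%, others 0.193% to 0.208%).

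The change of HSALG015017.2 between day 3 and day 10 differed between brain and fat body by -1.31 log2 units (edgeR adjusted p = 0.0356).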

How the results depend on the processing

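Of 286 alternatives to the counts of members, 248 stayed within 1.5 times the main count. The day 10 against day 3 count in fat body (7) was 13 with library totals alone, 3 without a filter, 12 with a replicate block, 1 with flow cell and lane as a term and 15 with DESeq2. Within gamergates it was 0 and within workers 4, an alternative added after seeing the data. Leaving out 1 library gave 2 (without day 3 gamergate library 3) to 11 (without day 3 worker library 2). It gave 3 or 4 without day 10 gamergate library 2, 3 or 4, day 10 worker library 1, 2 or 4, day 3 gamergate library 1 or day 3 worker library 1. The ovary count (16) was 0 with the lane term, 10 within gamergates and 12 to 19 with 1 library left out. The brain count (0) was 1 on the compared groups alone. The count of changes that differed between brain and fat body (1) was 0 with library totals alone, 3 on the compared groups alone and 2 with DESeq2. It was 0 to 1 when the brain, fat body and ovary libraries of 1 number were left out together. Of the members, 41 were kept with 10 CPM added and 13 with library totals alone, and 52 to 61 without a set of libraries. The causes were not tested.

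In the fits of all tissues, the brain, fat body and ovary libraries of 1 number, day and caste were left out together. This gave 41 to 47 calls between brain and fat body at day 3 and 37 to 41 at day 10. For fat body against ovary it gave 58 to 60 at day 3 and 58 to 59 at day 10. Brain against ovary stayed at 62. The caste counts stayed at 0, as did the brain day 10 against day 3 count with 1 library left out. For single members, 742 of 949 alternatives kept direction and call and 206 lost the call. HSALG003307.1 in fat body reversed to 0.77 with flow cell and lane as a term. Without day 10 gamergate library 3, the ovary change of HSALG002156.2 was 0.74, against 1.63 with it.

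Library numbers are shared by the tissues of a day and caste. Same-numbered brain and fat body libraries deviated together with a correlation over 0.1 in 10 of 25 pairs (median 0.09). By this cutoff the numbers were not taken as pairs in the main fits, though the cutoff does not show that they are unlinked. The replicate block gave 62 calls for brain against ovary at day 3, 60 for fat body against ovary, 48 for brain against fat body and 13 for the ovary change. Of the 5 fat body libraries of its day and caste, the same-numbered one correlated best for 16 of 25 brain libraries. Between brain and ovary this held for 18 of 25, and between fat body and ovary for 11 of 25. The same-numbered library was thus the best match more often than equal odds among the 5 libraries would give. The labels do not say whether same-numbered libraries came from the same ant. The main tissue contrasts treat them as unpaired, and the replicate block gives the counts with the numbers taken as pairs.

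The ratios without day 10 worker ovary library 1 were added after seeing the data. Low ovary reads limit the ovary changes: 22 members could not be tested there. Shallow libraries make CPM values below 1 rest on 1 or a few reads.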
